A study of Mus musculus with 6 samples.

Results

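Complex I of the mitochondrial respiratory chain was followed at the level of its messenger RNA in brown and white fat. The genes were the 44 whose symbol begins with Nduf, read by 88 of the 45037 probe sets on the array that are not controls. A probe set is a group of short probes against 1 transcript, and only those to which the platform annotation gives a single gene symbol were taken. The rule reads the symbol and no signal. In all, 18193 genes had such a symbol. The Nduf genes comprise 6 of the 7 core subunits of the matrix arm, 9 accessory subunits of that arm, 19 accessory subunits of the membrane arm, 8 assembly factors, and the pair Ndufa4 and Ndufa4l2. Ndufa4 carries a complex I name but has since been assigned to cytochrome c oxidase (complex IV), and the pair is therefore described apart.

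The tissues were the interscapular brown and the epididymal white fat of male C57BL/6 mice aged 10 to 12 weeks. The mice were left untreated at ambient temperature. Each tissue was dissected from 3 mice, and 1 Affymetrix mouse 430_2 array was used for each of the 6 RNA samples. It is a 1-colour array whose signals are brightness values in arbitrary units. All brown samples came from one body site and all white samples from another, so fat type and site cannot be told apart.

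Complex I, or NADH:ubiquinone oxidoreductase, passes electrons from NADH to ubiquinone and pumps protons out of the mitochondrial matrix. It is shaped like an L: the matrix arm carries the flavin and the iron-sulfur clusters along which the electrons travel, and the membrane arm moves the protons. The core subunits do the chemistry, accessory subunits surround them, and assembly factors help to build the complex without being part of it. In brown fat, which is rich in mitochondria, the uncoupling protein Ucp1 lets protons back into the matrix so that the energy is released as heat.

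The arrays carried the markers of the tissues they were labelled with. The summed signal of 7 brown adipocyte markers, Ucp1 and Cidea among them, was 30073 to 30925 on the brown and 248 to 402 on the white arrays. That of 6 white adipocyte markers, leptin among them, was 1418 to 1517 on the brown and 31561 to 33096 on the white arrays. Probe sets called present made up 35.6% to 37.5% of each brown and 45.2% to 45.8% of each white array. The ratio of 3' to 5' actin signal, a measure of RNA integrity, was 1.36 to 2.24 in brown and 1.19 to 1.73 in white. Correlations of the log2 signals ranged from 0.808 to 0.818 between the tissues, from 0.959 to 0.965 for pairs of brown arrays and from 0.981 to 0.983 for pairs of white ones. With 3 arrays per tissue, the number of arrays limits the precision.

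Nearly all of the Nduf genes had more RNA in brown fat. Testing needed a present call on 3 or more of the 6 arrays, which 42 of the 44 genes had, and 40 of these were present on all 6. Ndufaf6 met this need through the brown arrays alone and Ndufa4l2 through the white arrays alone. Of the 42, 41 passed as higher in brown and 0 as higher in white at an adjusted p under 0.05 (limma, Benjamini-Hochberg over all 10264 genes tested), against backgrounds of 28.2% and 32.7% of all genes. The tissues differed at very many genes, since 61% of all genes tested were called in one direction or the other. On every brown array the geometric mean signal of the 42 genes was close to the same value, at 3023, 3034 and 3049, and on the white arrays it was 1073, 1049 and 988. The median difference, brown minus white, was 1.53 on the log2 scale (2.89-fold), and the median over all genes tested was -0.04. At least 2-fold higher in brown were 35 of the 42, where 10.9% of all genes were. That number was 33 on the signals as deposited, 41 with each array centred on its median and 16 in the deposited series table with its tissue columns exchanged. None of the 42 had overlapping arrays between the tissues, as was so for 67.3% of all genes, and for 41 of them every brown array lay above every white array, as it did for 31.3% of all genes. The whole-array balance depends on the scaling: calls towards brown and towards white numbered 2895 and 3361 after quantile normalisation, 1535 and 5760 on the signals as deposited, 1376 and 5349 when arrays were scaled to spike-in controls, and 1764 and 5659 with the deposited series table once its tissue columns are exchanged. The Nduf genes were called higher in brown in 41 of 42 cases under the first 3 of these and in 38 of 42 with the exchanged series table. In whole tissue, fewer cells of a type and less RNA per cell cannot be told apart.

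**Figure D1:**
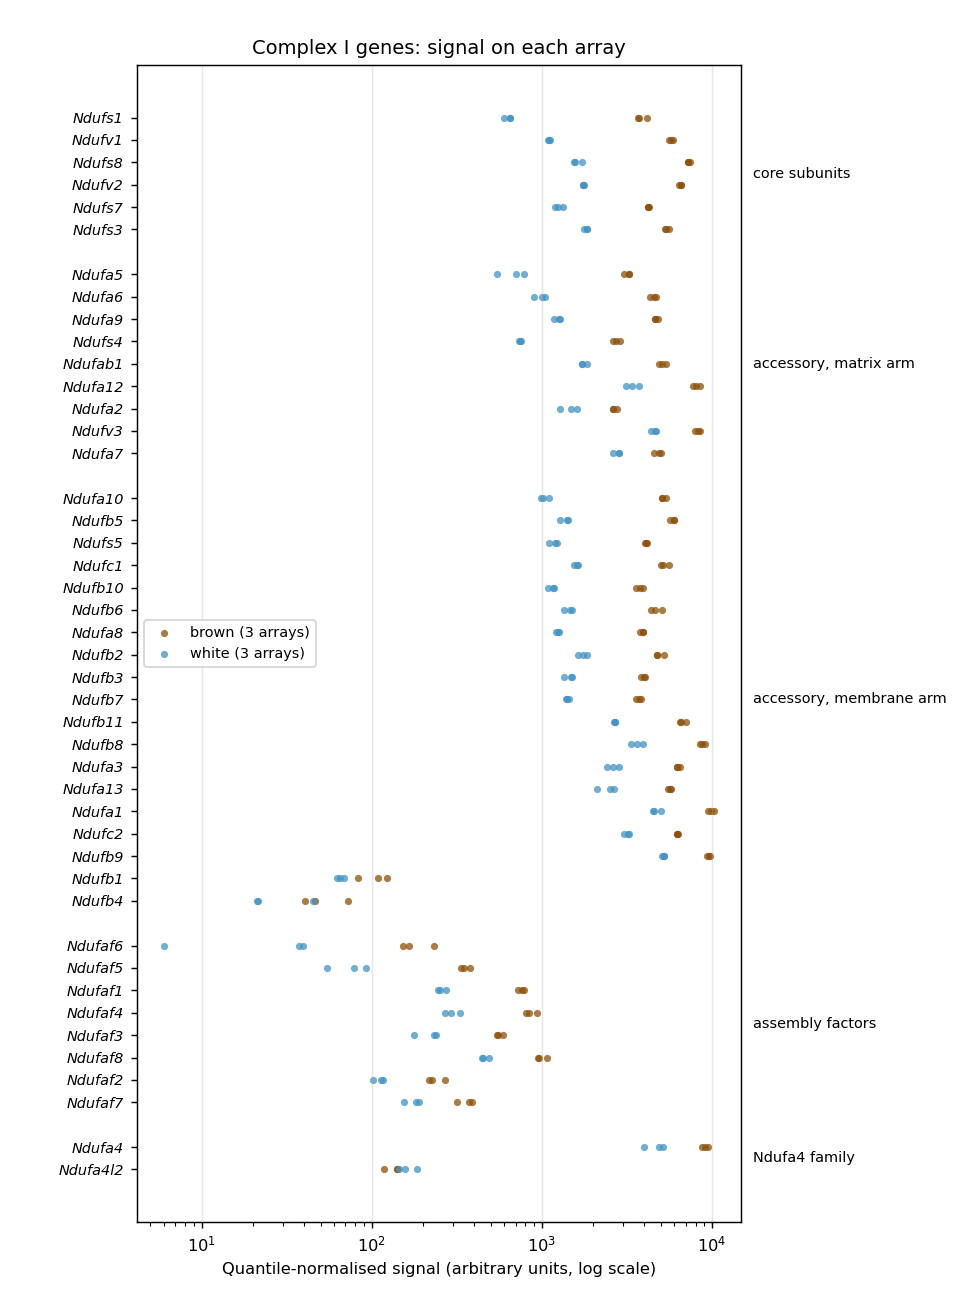
Quantile-normalised signal (arbitrary units, log axis) of each of the 44 Nduf genes on the 3 brown and 3 white arrays, 1 point per array, grouped by role. The brown points lie right of the white ones for every gene but Ndufa4l2, where the order is turned, and Ndufb4, where they overlap.

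Replicate arrays lay close together. The coefficient of variation of the 42 genes had a median of 3.88% among brown arrays and 5.71% among white arrays. The lowest values were 0.627% for Ndufc2 in brown and 1.002% for Ndufb11 in white. The highest in both tissues belonged to the assembly factor Ndufaf6, with 23.7% in brown and 67.9% in white.

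The promoters of the Nduf genes were searched for 4 short motifs on both strands. The stretch searched ran from 250 bases before the start to 50 bases after it. The sequences are those of RefSeq on the mouse build GRCm38.p6, and 41 promoters of 39 Nduf genes matched by symbol. Ndufb1 and Ndufb4, which did not meet the detection filter and were not tested between the tissues, are among them. The motifs were GCGCA and GCGC with any 1 base between them, bound by NRF1, CCGGAAG, bound by ETS factors such as GABPA, AAGATGG, bound by YY1, and TNAAGGTCA, bound by estrogen-related receptors. NRF1 and GABPA are known as regulators of nuclear genes for the respiratory chain. The NRF1 letters occurred in 8 of the 41 promoters, or 19.5%, against 4.60% of all 32851 promoters of that length. The YY1 letters occurred in 7 (17.1% against 6.34%), the ETS letters in 6 (14.6% against 8.86%) and the estrogen-related receptor letters in 1 (2.44% against 1.28%). All 7 YY1 matches lay after the start, from 11 to 39 bases into the gene. The 1 promoter with the estrogen-related receptor letters was that of the untested Ndufb4. At least 1 of the 4 motifs was found in 20 of the 41 (48.8% against 19.1%), and no matches of different motifs overlapped. A match describes these letters and is not a measured binding site. The promoters with the NRF1 letters belonged to Ndufa5, Ndufa6, Ndufa8, Ndufaf4, Ndufaf5, Ndufb4 and Ndufs5, with 2 promoters for Ndufa5. Those 2 overlap and share a single NRF1 site, so the 8 promoters stand for 7 genes. The 250 bases before the start follow here for 4 of these genes, from 3 roles, because they hold the NRF1 letters, marked in capitals, and for the core subunit Ndufv1 as an example in which none of the 4 motifs was found. Ndufa5 lies at chr6:24527691-24527940 on the minus strand, with the letters starting 26 bases before the start. Ndufa8 lies at chr2:36049339-36049588 on the minus strand, with a match 30 bases before the start. Ndufs5 lies at chr4:123718187-123718436 on the minus strand, with a match 98 bases before the start. Ndufaf4 lies at chr4:24897833-24898082 on the plus strand, with a match on both strands 113 bases before the start. Ndufv1 lies at chr19:4012756-4013005 on the minus strand.
Ndufa5: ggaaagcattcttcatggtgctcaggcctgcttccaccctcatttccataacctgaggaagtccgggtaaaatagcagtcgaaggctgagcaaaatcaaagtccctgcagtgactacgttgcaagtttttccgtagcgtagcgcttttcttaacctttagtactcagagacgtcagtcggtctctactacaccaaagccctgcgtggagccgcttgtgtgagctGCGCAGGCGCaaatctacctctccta
Ndufa8: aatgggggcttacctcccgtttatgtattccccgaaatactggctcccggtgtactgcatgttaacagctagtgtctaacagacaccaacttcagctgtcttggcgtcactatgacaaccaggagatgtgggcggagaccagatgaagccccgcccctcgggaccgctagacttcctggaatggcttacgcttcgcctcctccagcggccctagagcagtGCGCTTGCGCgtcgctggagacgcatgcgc
Ndufs5: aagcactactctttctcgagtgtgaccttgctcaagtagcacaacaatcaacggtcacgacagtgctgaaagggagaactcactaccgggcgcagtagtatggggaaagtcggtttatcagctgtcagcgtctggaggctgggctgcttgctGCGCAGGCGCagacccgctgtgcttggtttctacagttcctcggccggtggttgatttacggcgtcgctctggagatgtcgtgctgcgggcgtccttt
Ndufaf4: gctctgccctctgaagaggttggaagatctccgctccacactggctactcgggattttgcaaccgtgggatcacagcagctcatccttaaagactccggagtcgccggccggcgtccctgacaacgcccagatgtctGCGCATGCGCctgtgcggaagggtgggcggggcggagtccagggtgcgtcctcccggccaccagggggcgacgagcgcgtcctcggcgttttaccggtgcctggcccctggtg
Ndufv1: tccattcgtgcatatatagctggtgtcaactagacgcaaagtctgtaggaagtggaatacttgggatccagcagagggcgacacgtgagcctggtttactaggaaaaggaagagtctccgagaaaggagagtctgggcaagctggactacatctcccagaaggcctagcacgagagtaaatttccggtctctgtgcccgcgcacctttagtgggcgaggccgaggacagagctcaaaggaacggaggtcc

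The core subunits of the matrix arm, which bind NADH and hold the electron path, were all higher in brown. Among all genes tested the share was 28.2%. Differences of the 6 ran from 1.57 to 2.60 on the log2 scale, with a median of 2.04 (4.10-fold). All 6 reached 2-fold, against 10.9% of all genes, and 4 did in the exchanged series table. Ndufs1, the largest subunit and a carrier of iron-sulfur clusters, gave signals of 4169.6, 3690.4 and 3704 on the brown arrays and 598, 653 and 648 on the white arrays. Every brown value was far above every white one, with means of 3855 ± 273 and 633 ± 30.2 (SD, n = 3 arrays each). Its difference was 2.60 (SE 0.07, 6.08-fold, limma adjusted p = 1.81e-09), the largest of the core subunits. Ndufv1, which holds the flavin and the NADH site, read 5873, 5582 and 5715 in brown and 1107, 1083 and 1110.5 in white. The white arrays of this gene lay within a narrow band, and its difference was 2.38 (SE 0.05, 5.20-fold, limma adjusted p = 5.64e-10). Ndufs8, an iron-sulfur subunit on the way to the quinone site, gave 7401, 7216 and 7216 in brown and 1716, 1562 and 1545 in white. The tissues again did not overlap, and the difference was 2.18 (SE 0.05, 4.53-fold, limma adjusted p = 1.11e-09). Ndufv2 and Ndufs7, which also carry iron-sulfur clusters, differed by 1.89 and 1.75 on the log2 scale. Ndufs3 had the smallest difference among the core subunits, 1.57 (SE 0.05, limma adjusted p = 3.75e-09), from signals of 5396, 5276 and 5551 in brown and 1849, 1830.2 and 1772 in white. That is still 2.98-fold, with no overlap between the tissues.

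The accessory subunits of the matrix arm were also all higher in brown, 9 of 9, with a median log2 difference of 1.53 (2.89-fold) and a range from 0.80 to 2.25. Of all genes tested, 28.2% were higher in brown. At least 2-fold higher were 6 of the 9 subunits, against 10.9% of all genes, and 3 in the exchanged series table. Ndufa5, a small subunit of the matrix arm, gave 3238, 3258 and 3057 in brown and 703, 541 and 782 in white. The white arrays spread more than the brown ones, yet the highest of them was well below the lowest brown array, and the difference was 2.25 (SE 0.12, limma adjusted p = 1.24e-07). Ndufa6, an LYR-motif protein that binds the acyl carrier protein Ndufab1, read 4333, 4709 and 4573 in brown and 897, 1040.1 and 1001 in white. The difference was 2.21 (SE 0.07, limma adjusted p = 3.85e-09). For Ndufa9, a member of the short-chain dehydrogenase family near the joint of the arms, the signals were 4648, 4629 and 4815 in brown and 1265, 1281 and 1185 in white. Replicates lay within a narrow band in both tissues, and the difference was 1.92 (SE 0.05, limma adjusted p = 2.46e-09). Ndufs4, whose loss in mice and people causes a severe complex I deficiency, differed by 1.89 on the log2 scale. Ndufab1, the mitochondrial acyl carrier protein, which sits in both arms, read 5373, 4869 and 5067 in brown and 1853, 1725 and 1711 in white. Its difference was 1.53 (SE 0.06, limma adjusted p = 1.32e-08).

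The remaining accessory subunits of the matrix arm differed less. Ndufa12 gave 8018, 7691 and 8493 in brown and 3726, 3383 and 3122 in white, a difference of 1.24 (SE 0.07, limma adjusted p = 1.63e-07). Once probe sets that can cross-hybridise were removed, another probe set stood for Ndufa12, and its difference of 1.20 was not called (limma adjusted p = 0.0711). That probe set was dim, with 22.8, 28.2 and 39.3 in brown and 6.53, 14.2 and 22.4 in white. Of the 4 tested probe sets of Ndufa12, 3 were called higher in brown. Ndufa2 and Ndufv3 were higher in brown by 0.88 and 0.85 on the log2 scale, under 2-fold. The smallest difference in the arm was that of Ndufa7, with 4568, 5031 and 4853 in brown and 2846, 2615 and 2837 in white. It amounted to 0.80 (SE 0.06, 1.74-fold, limma adjusted p = 1.14e-06), and the brown and white arrays did not overlap. With the exchanged series table, the differences of Ndufa7, 0.09, Ndufa2, 0.28, and Ndufv3, 0.30, were in the same direction but not called (limma adjusted p = 0.510, 0.0826 and 0.0635).

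In the membrane arm, 17 of the 19 accessory subunits were tested, and all 17 were higher in brown, against 28.2% of all genes. The median log2 difference of the 17 was 1.44 (2.71-fold), from 0.89 to 2.33. After quantile normalisation 15 reached 2-fold, against 10.9% of all genes, and 4 did in the exchanged series table. Ndufa10, which resembles a nucleoside kinase, had the largest difference of the arm, with 5098, 5059 and 5373 in brown and 1014, 1099 and 985 in white. The difference was 2.33 (SE 0.06, 5.02-fold, limma adjusted p = 1.29e-09). Ndufb5, a subunit with a single membrane helix, read 5982, 5647 and 5982 in brown and 1428, 1411 and 1281 in white. All brown arrays lay far above all white ones, with a difference of 2.10 (SE 0.06, limma adjusted p = 2.36e-09). Ndufs5, which faces the intermembrane space, gave 4035, 4104 and 4166 in brown and 1202, 1221 and 1098 in white. The difference was 1.81 (SE 0.06, limma adjusted p = 5.35e-09). Other subunits on the intermembrane side had differences of 1.72 (Ndufb10), 1.65 (Ndufa8) and 1.39 (Ndufb7) on the log2 scale. Ndufc1 (1.72), Ndufb6 (1.71), Ndufb2 (1.496), Ndufb3 (1.44), Ndufb11 (1.32), Ndufb8 (1.27) and Ndufa1 (1.07) were likewise at least 2-fold higher in brown. So was Ndufa13 (1.22), also known as GRIM-19, a protein first described in cell death.

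Another 3 tested subunits completed the membrane arm, and Ndufb1 and Ndufb4 did not meet the detection filter. Ndufa3, a small subunit of the membrane arm, gave 6209, 6473 and 6236 in brown and 2626, 2837 and 2422 in white, a difference of 1.27 (SE 0.06, limma adjusted p = 7.30e-08). Ndufc2 was higher by 0.97 on the log2 scale. Ndufb9, another LYR-motif protein that binds the acyl carrier protein, had the smallest difference of the arm, 0.89 (SE 0.04, 1.85-fold, limma adjusted p = 4.14e-08). Its signals were 9599.9, 9363 and 9758 in brown and 5208, 5253 and 5088 in white, which did not overlap. The single-symbol probe set of Ndufb1 was called absent on all 6 arrays, with 123, 108 and 83.0 in brown and 65.0, 68.3 and 62.8 in white. That of Ndufb4 was called present on 1 array and marginal on 1, with 40.5, 46.2 and 72.5 in brown and 21.1, 21.3 and 45.4 in white, and here the tissues overlapped. Without the detection filter, Ndufb1 had a difference of 0.66 (limma adjusted p = 0.0294) and Ndufb4 one of 0.91, which was not called (limma adjusted p = 0.118).

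All 8 assembly factors were higher in brown, against 28.2% of all genes, with a median log2 difference of 1.46 (2.75-fold). All 8 reached 2-fold after quantile normalisation, against 10.9% of all genes. But 4 did on the signals as deposited, 4 when scaled to spike-in controls and 5 in the exchanged series table. The signals of the assembly factors are not set against those of the subunits, since each probe set responds to its target in its own way. Ndufaf6, which takes part in early assembly of the complex, gave 234, 165 and 153 in brown and 39.5, 37.3 and 6.01 in white. It was called present on every brown array and absent on every white array, so its white level was not well above background and no fold is given. The fitted log2 difference carries the same limit. Ndufaf6 met the detection filter through the brown arrays alone, so its test is not independent of its being high there. The third white array was far below the others, and the fitted log2 difference of 3.13 (SE 0.62, limma adjusted p = 0.00154) became 2.23 without it (limma adjusted p = 4.60e-05) and 1.44 with 64 signal units added before the log (limma adjusted p = 1.55e-05). Ndufaf5, which modifies the core subunit Ndufs7, gave 335, 347 and 378 in brown and 93.04, 79.1 and 54.4 in white. The difference was 2.26 (SE 0.19, limma adjusted p = 4.04e-06). Ndufaf1, which builds the membrane arm together with Ecsit and Acad9, read 727, 765 and 786 in brown and 273, 244 and 251 in white. All brown arrays lay well above all white ones, and the difference was 1.57 (SE 0.09, limma adjusted p = 2.16e-07). The partners Ndufaf3 and Ndufaf4, which help to join the quinone module to the membrane arm, were higher in brown by 1.39 and 1.53 on the log2 scale. Ndufaf2, a relative of Ndufa12, was higher by 1.10. Ndufaf8, the partner of Ndufaf5, was higher by 1.11, and in the exchanged series table its difference was 0.05 and not called (limma adjusted p = 0.717). The smallest difference was that of Ndufaf7, an arginine methyltransferase, with 372, 315 and 388 in brown and 190.1, 181 and 154 in white. It was 1.03 (SE 0.13, limma adjusted p = 6.68e-05).

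**Figure D2:**
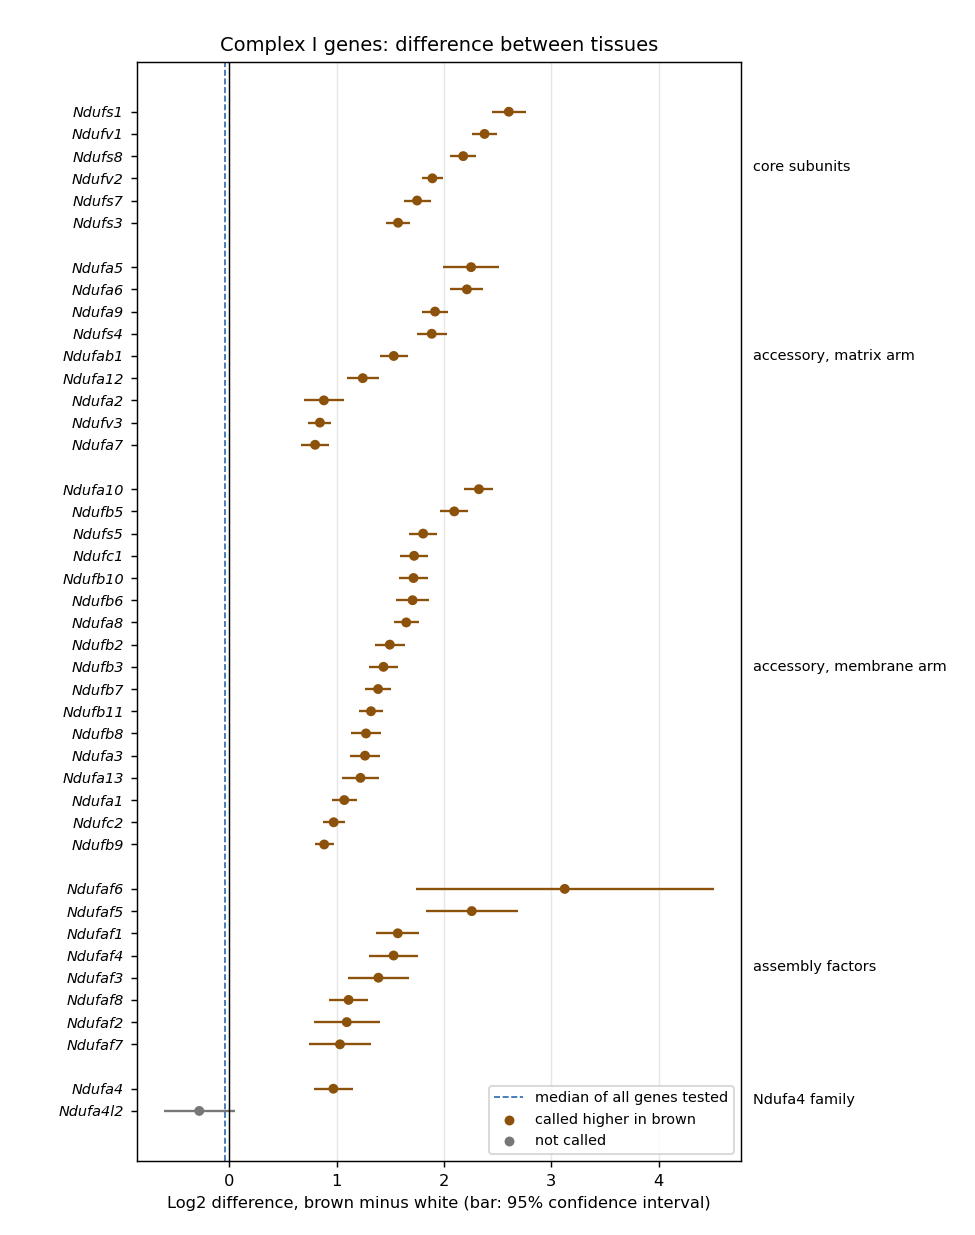
Log2 difference, brown minus white, of the 42 tested Nduf genes (points, with bars for 95% confidence intervals from the limma fit), grouped by role. All points but Ndufa4l2 lie above 0, from 0.80 for Ndufa7 to 3.13 for Ndufaf6, whose interval of 1.74 to 4.51 is the widest. Ndufaf6 was called absent on every white array.

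Of the Ndufa4 pair, Ndufa4 was higher in brown and Ndufa4l2 was not called. Ndufa4, now counted with complex IV, gave 9088, 9463 and 8696 in brown and 4853, 4000.4 and 5117 in white. The difference was 0.97 (SE 0.08, 1.96-fold, limma adjusted p = 4.13e-06), with no overlap between the tissues. Ndufa4l2, its paralog, known to be induced by low oxygen, was the 1 tested Nduf gene that was not called. It read 119, 140 and 141 in brown and 157, 145 and 183 in white, and was called present on all 3 white arrays, marginal on 1 brown array and absent on the other two. The means were 133 ± 12.6 in brown and 162 ± 19.7 in white (SD, n = 3 arrays each). Its difference was -0.28 on the log2 scale (95% confidence interval -0.61 to 0.05, limma adjusted p = 0.127). This value moves with the scaling. It was -0.82 on the signals as deposited (limma adjusted p = 0.000855), where the gene was called higher in white, and 0.29 in the exchanged series table (limma adjusted p = 0.0150), where it was called higher in brown.

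Different probe sets of 1 gene gave the same direction. Calls towards brown were made for 77 of the 82 Nduf probe sets tested and towards white for 0, and 5 were not called (limma, adjusted over all 19819 probe sets). Of all probe sets, 24.6% were called towards brown, 29.9% towards white and 54.5% in either direction. In 18 of the 22 genes with several tested probe sets, all of them were called higher in brown. The sizes differed more than the directions. The widest range was that of Ndufs8, whose 6 probe sets ran from 0.43 to 3.12 on the log2 scale. Its lowest probe set was present on 4 of the 6 arrays, with 232, 386 and 207 in brown and 199.6, 190.2 and 201 in white, and was not called (limma adjusted p = 0.107). The 5 probe sets of Ndufab1 ran from 0.64 to 2.55, and the lowest, with 55.3, 101 and 67.9 in brown and 40.9, 56.7 and 42.9 in white, was not called (limma adjusted p = 0.0674). The uncalled probe set of Ndufa3 differed by 0.86 (limma adjusted p = 0.0538), and that of Ndufa12 by 1.20 (limma adjusted p = 0.0783). The brightest probe set, which stood for the gene, had the largest difference in 5 of the 22 genes, the smallest in 10 and one in between in 7.

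**Figure D3:**
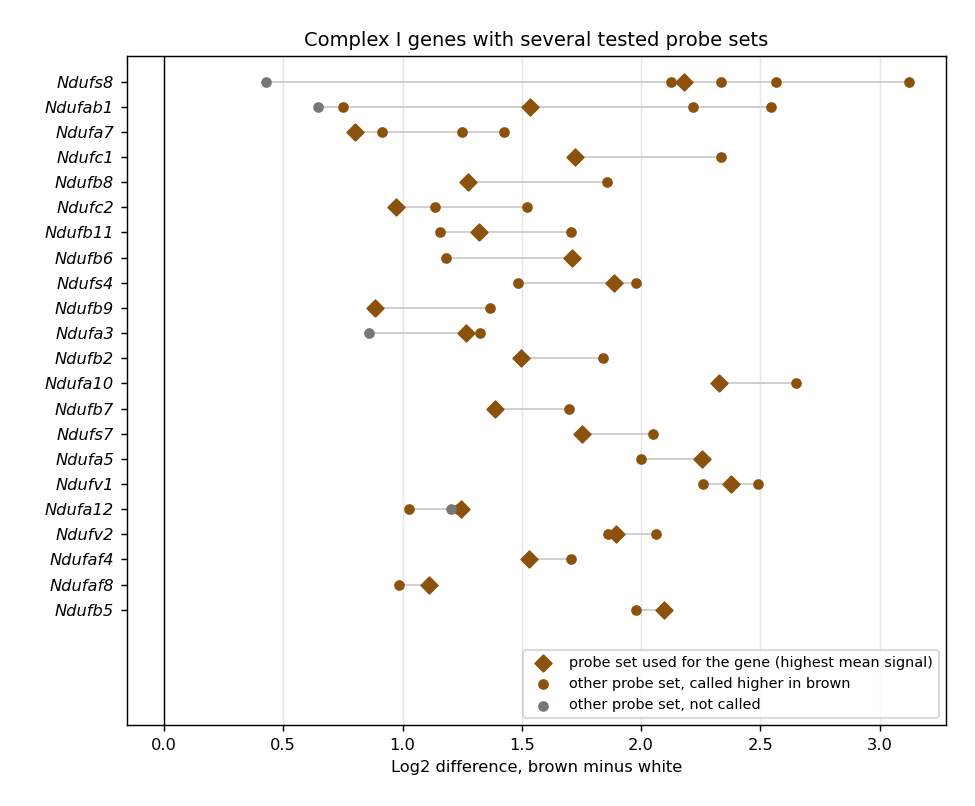
Log2 difference, brown minus white, of every tested probe set of the 22 Nduf genes that had several, 1 row per gene. Diamonds mark the probe set with the highest mean signal, brown circles other probe sets called higher in brown, and grey circles the 4 not called, and all lie above 0.

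Other genes around complex I were listed by role, with earlier results of these data known. Of 10 further assembly factors tested, 9 were higher in brown, against 28.2% of all genes, with a median log2 difference of 1.25. Ecsit had the largest difference, 2.16 (limma adjusted p = 9.27e-07), with signals of 587, 686 and 514 in brown and 113, 155 and 133 in white. Its partner Acad9 was higher by 0.97, and Foxred1, another assembly factor, by 1.96. Dmac1 had the smallest difference, 0.44, which was still called (limma adjusted p = 0.000417). Tmem126b, a member of the same assembly complex as Ecsit and Ndufaf1, differed by 0.48 and was not called (limma adjusted p = 0.0881).

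The membrane arm also has subunits that are encoded in mitochondrial DNA, and of these ND5 was read by a single-symbol probe set. ND5, one of the proton-pumping subunits, read 10853, 10892 and 11513 in brown and 11570.1, 10667 and 9871 in white. The tissues overlapped, and the difference was 0.05 on the log2 scale (95% confidence interval -0.07 to 0.18, limma adjusted p = 0.444). After quantile normalisation, the upper end of that interval was below the smallest called difference of a nuclear Nduf gene, the 0.80 of Ndufa7. For ND5 no other scaling is given. Its mean signal in brown, 11086, was above that of Ndufa1, 9879, the brightest Nduf gene there. Whether the array still reads differences in full at this brightness was not tested.

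Among the other complexes of the chain, the 4 subunits of complex II were all higher in brown, with a median log2 difference of 1.69, as were the 10 listed genes of complex III with cytochrome c, with a median of 1.82. For complex IV, 12 of 13 tested genes were higher in brown, with a median of 0.98. Cox7a1 and Cox8b, forms typical of brown fat and muscle, differed most, by 7.26 and 6.12. The 15 ATP synthase genes had a median of 0.99, and 12 of them were called towards brown and 2 towards white. The 2 higher in white, Atp5g1 and Atp5g3, code for the same ring protein. The log2 difference of Atp5g3 was -0.66. Atp5g1 read 39.3, 31.6 and 24.3 on the brown arrays, all called absent, and 423, 375 and 397 on the white arrays. Atp5g2, the remaining gene for that protein, was higher in brown by 0.76 (limma adjusted p = 9.41e-07). Enzymes that supply or use NADH, or bring electrons into the chain past complex I, were higher in brown in 10 of 11 cases, with a median of 2.03. The largest differences were those of Gpd2, the mitochondrial glycerol-3-phosphate dehydrogenase (2.96), and Etfdh, which passes on electrons from fat oxidation (2.84). Nnt, the transhydrogenase that uses NADH to make NADPH, was higher in white, with 54.2, 50.7 and 74.8 in brown and 295, 263 and 317 in white (log2 difference -2.30, limma adjusted p = 2.01e-06). All these counts stand beside shares of 28.2% towards brown and 32.7% towards white among all genes tested. Differences between these lists were not tested.

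**Figure D4:**
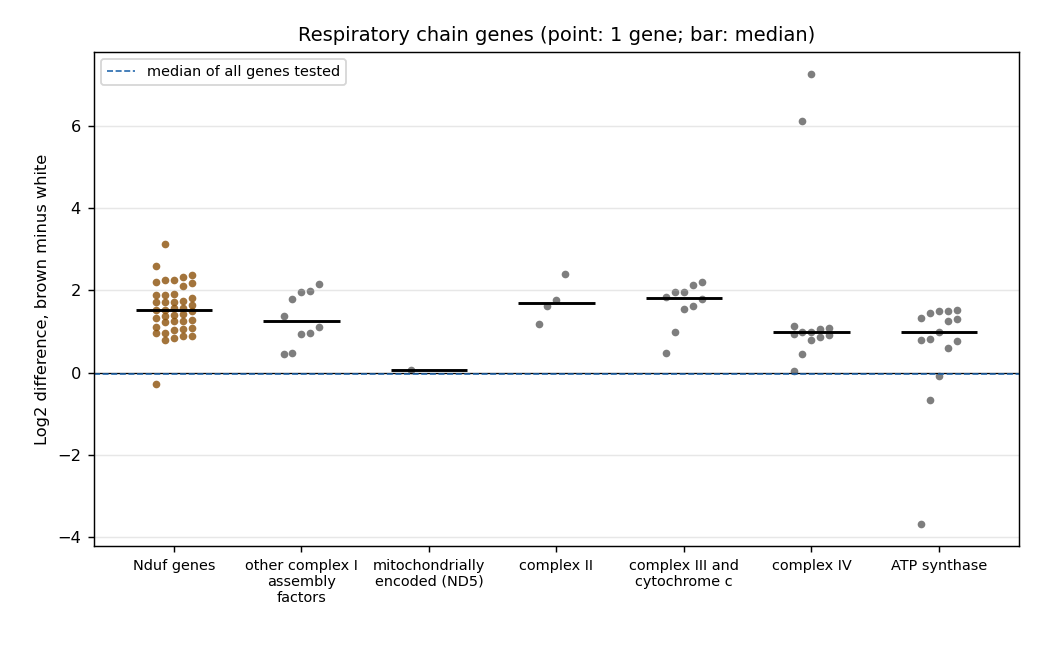
Log2 difference, brown minus white, of the tested genes of each respiratory chain group (points, 1 per gene, with a bar at the median) and the median of all genes tested (dashed line). The medians are 1.53 for the Nduf genes, 1.25 for other complex I assembly factors, 1.69 for complex II, 1.82 for complex III with cytochrome c, 0.98 for complex IV and 0.99 for ATP synthase, and ND5 stands at 0.05.

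Markers of other cell types differed between the tissues together with the Nduf genes. The summed signal of 10 macrophage markers was 3175 to 3675 on the brown and 20034 to 20659.6 on the white arrays, and all 10 were higher in white. That of 8 mesothelial markers was 282 to 323 on the brown and 3508 to 3667 on the white arrays, and all 8 were higher in white. That of 13 skeletal muscle markers, a tissue also rich in complex I, was 1518 to 2030.1 on the brown and 750.2 to 890.5 on the white arrays. Of these 13, 7 were called absent on all brown arrays, creatine kinase Ckm and the myosin Myh2 among them, and 9 on all white arrays. Of the 4 that were tested, 3 were higher in brown, namely Myl1 (1.74, limma adjusted p = 1.06e-05), Casq1 (0.78) and Ttn (0.62). Acta1 ran towards white, with a log2 difference of -2.51, and was not called (limma adjusted p = 0.113). Of all genes tested, 28.2% were higher in brown and 32.7% in white. Myl1, a myosin light chain, read 845, 1053 and 1134 in brown and 392, 253 and 273 in white. It was the brightest of the 13 on every array, so the summed muscle signal rests largely on this 1 gene in brown. The sum of the 3 shared adipocyte markers Adipoq, Fabp4 and Pparg was 24007 to 24412 on the brown and 27170.1 to 28051 on the white arrays. The part of these cell types in the Nduf differences was not tested.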

How the data were processed

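Gene expression was measured in brown and white fat, with 3 arrays per tissue grouped by their sample titles. Per the file headers, each array file deposited by the authors lists for each of 45101 probe sets a linear signal intensity, a present, marginal or absent call and the p-value of that call. The sources used here name neither the software nor the array scaling or the genome build. A series table of signal intensities was deposited too, with unknown centring and column medians of 64.3, 62.9 and 63.8 (named brown) and 56.7, 56.8 and 55.9 (named white). Its tissue columns run opposite to the array files: brown arrays correlated at 0.778 to 0.786 with columns named brown and at 0.892 to 0.912 with those named white. It served only as an alternative.

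After 64 control probe sets were left out, log2 signals were quantile-normalised (the 1 signal of 0 was set to 0.1), and 19819 probe sets with a present call on 3 or more of 6 arrays entered a two-sided test in limma 3.58.1 under R 4.3.3 (lmFit, eBayes with trend). P-values were adjusted by Benjamini-Hochberg, and the threshold was 0.05. Each gene was represented by its probe set with the highest mean log2 signal, and the adjustment was repeated over 10264 genes. A gene past the threshold is described as higher in a tissue. Where all arrays of the dimmer tissue were called absent, no fold is given: some probe sets were called present at signals as low, so the detection calls set no bound. Symbols came from the platform annotation: 34945 probe sets had 1 symbol, 932 several and 9160 none. The fit was tested on simulated data.

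The members, gene lists and tests were chosen with earlier results of these data known. Values by array are given for the 3 largest and the smallest called difference in each role, for genes not called, for the Ndufa4 pair and for genes with only some probe sets called. The genes of the other lists named in the text include some chosen after their values were seen. The samples are described as biological replicates from 3 mice; nothing states that equal replicate numbers mark 1 mouse. Alternatives covered scaling, low values, the detection filter, the choice of probe sets, moderation, array weights, a replicate block, the series table, and leaving out each array.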

Additional observations from a re-analysis of the deposited data

How the results depend on the processing

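Under 18 alternatives, which leave out the series table with its columns as named, 743 of 751 values of single Nduf genes kept their direction and their side of the threshold, 5 were no longer called, 2 became called, and 1, that of Ndufa4l2 in the exchanged series table (0.29), reversed. The count of Nduf genes higher in brown stayed at 41 with each array left out in turn, and the count higher in white stayed at 0. The count higher in white was 1 on the signals as deposited and 1 when arrays were scaled to spike-in controls, in both cases Ndufa4l2. With the series table as its columns are named, 0 Nduf genes were called towards brown and 38 towards white, and the median log2 difference was -0.79; with its columns exchanged, an alternative chosen after seeing the data, the median was 0.79. The median was 1.39 on the signals as deposited, 1.39 after scaling to spike-in controls, 1.97 with each array centred on its median and 1.42 with 64 signal units added, and 1.52 to 1.58 with each array left out in turn. The median over all genes was -0.50 on the signals as deposited and 0.09 after centring. Relative to all genes the Nduf median was 1.88 in both, against 1.58 after quantile normalisation. The 2 equal values were fixed in advance, since centring shifts all genes of an array alike. Deviations from the tissue means correlated at 0.02, -0.01 and -0.05 between same-numbered samples. Brown sample 1 correlated best with its own number, and brown samples 2 and 3 did not. Deviations of 3 arrays in each of 2 different tissues cannot decide whether equal numbers mark 1 mouse. With a replicate block, 41 Nduf genes were again higher in brown, and 6056 genes were called against 6256. Without the detection filter, 42 of 44 were higher in brown. The cause of these shifts was not tested. Dim probe sets limit what can be said of Ndufb1, Ndufb4, Ndufa4l2 and Ndufaf6.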

Other observations

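Probe sets shared between an Nduf gene and another locus were not counted above. Of the 10 such probe sets, 6 were tested and 6 were higher in brown (limma, adjusted over all probe sets), against 24.6% of all probe sets. The probe set shared by Ndufs6 and Ndufs6b, which code for a zinc-binding subunit of the matrix arm, had means of 3429 ± 149 in brown and 1015 ± 64.1 in white (SD, n = 3 arrays each) and a log2 difference of 1.76. That of Ndufa11 and Ndufa11b, a membrane-arm subunit that lies next to complex III in supercomplexes, had means of 2085 ± 248 and 922 ± 11.7 and a log2 difference of 1.17. Ndufb4, whose own probe set was not called present on enough arrays for the test, was read together with Ndufb4b and Ndufb4c by 2 further probe sets, with log2 differences of 1.78 and 1.95. Which of the loci gave these signals cannot be told apart.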
